A study of Mus musculus with 12 samples.

Results

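Auxiliary subunits of voltage-gated calcium channels were 10 of the 770 genes on the nCounter Mouse PanCancer pathways panel, and they were chosen by gene symbol. They comprised 4 α2δ genes (*Cacna2d1*, *Cacna2d2*, *Cacna2d3*, *Cacna2d4*), 3 β genes (*Cacnb2*, *Cacnb3*, *Cacnb4*) and 3 γ genes (*Cacng1*, *Cacng4*, *Cacng6*). All 10 rows were found, and each holds the reading of 1 probe in 12 samples. The panel counts RNA molecules directly with colour-coded probes and without amplification.

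Mouse tissues of 3 groups were compared. Control eyes (n = 4) came from E18.5 embryos with the genotype Ctnnb1(ex3)Fl/+SmoM2Fl/+, which carried both floxed alleles and no Cre. Ocular *RBS* lesions (n = 5) came from E18.5 embryos with the genotype Rax-creERT2::Ctnnb1(ex3)Fl/+SmoM2Fl/+ after tamoxifen on E8.5. In these embryos, Cre under the *Rax* promoter, which is active in early retinal precursor cells, removes exon 3 of *Ctnnb1*. Beta-catenin is thereby stabilized, and an activated Smoothened (SmoM2) is switched on in the same cells. The labels mention no tamoxifen for the control eyes. Shh-medulloblastomas (Shh-MBs, n = 3) were hindbrain tumors of 14 day old hGFAP-cre::SmoM2Fl/+ mice, in which Cre under a human *GFAP* promoter acts in neural precursor cells and *Ctnnb1* is not altered. Each sample was 1 eye, lesion or tumor of 1 animal. An eye lesion still holds the tissue that was not recombined, and the tissue, the age and the genotype of a Shh-MB all differ from those of the eyes, so their parts cannot be told apart. Fewer cells of a type and less RNA per cell cannot be told apart in such bulk samples either.

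A high-voltage-activated calcium channel consists of a pore-forming α1 subunit and auxiliary subunits that set how much channel reaches the membrane and how it gates. The β subunit lies in the cytoplasm, binds the intracellular loop between the first repeats of α1 and promotes its transport to the membrane. The α2δ subunit is a largely extracellular protein that raises the density of channels at the surface and at synapses, and α2δ-1 and α2δ-2 bind the drugs gabapentin and pregabalin. The γ family is split in function: γ1 and its relative γ6 are known from muscle channels, whereas γ4 belongs to the transmembrane proteins that accompany AMPA-type glutamate receptors.

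RefSeq promoter windows of 300 bases (GRCm38.p6, 250 bases before to 50 bases after an annotated start) were matched by symbol to 7 of the 10 genes. Of 11 such windows, 3 are shown. Those of *Cacna2d1* and *Cacna2d2* are given because these α2δ genes had opposite orders in the lesion types, with *Cacna2d1* highest in Shh-MBs and *Cacna2d2* highest in *RBS* lesions. CpG dinucleotides are in capitals. The *Cacna2d1* window (chr5:15934441-15934740, plus strand) holds 42 CpG at 80% G and C. The *Cacna2d2* window (chr9:107399630-107399929, plus strand) holds 43 CpG at 75.7% G and C. Over all 32851 promoter windows the medians were 7 CpG and 52.7%. Both promoters are therefore rich in CpG, and this does not set them apart from each other.
Cacna2d1: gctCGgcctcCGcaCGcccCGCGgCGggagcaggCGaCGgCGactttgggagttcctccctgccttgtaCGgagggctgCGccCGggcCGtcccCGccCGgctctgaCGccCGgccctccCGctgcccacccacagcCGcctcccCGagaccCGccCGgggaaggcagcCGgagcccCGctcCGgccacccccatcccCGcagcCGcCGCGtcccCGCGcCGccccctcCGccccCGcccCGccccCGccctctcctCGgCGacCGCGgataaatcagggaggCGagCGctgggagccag
Cacna2d2: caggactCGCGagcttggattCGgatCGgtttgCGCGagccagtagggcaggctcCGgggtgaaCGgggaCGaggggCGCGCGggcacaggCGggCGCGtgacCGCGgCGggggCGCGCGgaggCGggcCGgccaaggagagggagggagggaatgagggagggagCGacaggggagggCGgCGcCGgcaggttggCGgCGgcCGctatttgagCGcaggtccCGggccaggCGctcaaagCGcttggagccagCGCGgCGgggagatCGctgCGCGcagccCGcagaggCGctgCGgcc

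The third window lies at a start site of *Cacnb4* (chr2:52675810-52676109, minus strand). It is shown because it holds the letters GACCACCCA, the consensus of the Gli factors through which Smoothened acts, at position -149 from the start (in capitals). These letters, searched on both strands, were present in 0.253% of all 32851 windows, and in 1 of the 754 windows of panel genes, which is this one. The Tcf/Lef letters CTTTGAT (3.73% of all windows) and the TATA letters TATAAA (13.6%) were in none of the 11 member windows. A match of letters does not show that a factor binds.
Cacnb4: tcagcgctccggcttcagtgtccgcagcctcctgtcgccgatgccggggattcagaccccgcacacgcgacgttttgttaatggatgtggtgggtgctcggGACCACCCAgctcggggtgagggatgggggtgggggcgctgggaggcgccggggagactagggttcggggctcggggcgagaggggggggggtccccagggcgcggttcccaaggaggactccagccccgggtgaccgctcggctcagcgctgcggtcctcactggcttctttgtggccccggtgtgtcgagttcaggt

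The deposited values are normalized signals on a linear scale, with a background subtracted and the lowest readings set to a floor. Each sample held 335392 to 717038 counts above background (*RBS* lesions 335392 to 638189, the lowest in *RBS* lesion 1), and 1 count was worth 0.810 to 1.64 units of signal. Between 52 and 123 of the 770 genes were at the floor in a sample. The tumors differed among themselves. Of 589 genes with a mean signal of 20 or more over the eyes and lesions, 12 were over 4-fold above both other tumors in Shh-MB 1, among them *Cacna2d2* and *Cacnb2*, 1 was in Shh-MB 2 and 4 were in Shh-MB 3. Over 4-fold below both others were 1, 8 and 0 genes. Shh-MB 2 had the most genes at the floor of the tumors (123, against 70 and 84). Results on the subunit genes are therefore also given with each tumor left out. Levels are not set against each other between genes, since probes differ in efficiency.

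In *RBS* lesions compared with control eyes, 5 of the 10 genes rose and 0 fell (limma on log2(signal + 1), Benjamini-Hochberg over all 770 genes, threshold 0.05). They were *Cacna2d2*, *Cacna2d3*, *Cacnb2*, *Cacnb3* and *Cacnb4*, that is 2 of 4 α2δ genes and all 3 β genes on the panel. None of the 3 γ genes passed. With limma fitted on all 12 samples *Cacna2d2* (adjusted *p* = 0.0778) and *Cacnb2* (adjusted *p* = 0.0597) missed the threshold, and with the methods' t-test after step-down Bonferroni adjustment *Cacnb3* alone passed (adjusted *p* = 0.0149). Over the whole panel 33.0% of genes rose and 18.2% fell in this comparison, 51.2% in all. At an unadjusted *p* under 0.05, limma had 6 of the 10 genes higher, *Cacng4* being the gene added, and 0 lower, and the methods' t-test also had 0 lower. In these 5 genes every lesion lay above every control eye, and over the panel 43.4% of genes had groups that did not overlap. The median log2 difference of the 10 genes was 0.55, and that of all 770 genes was 0.172.

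**Figure D1:**
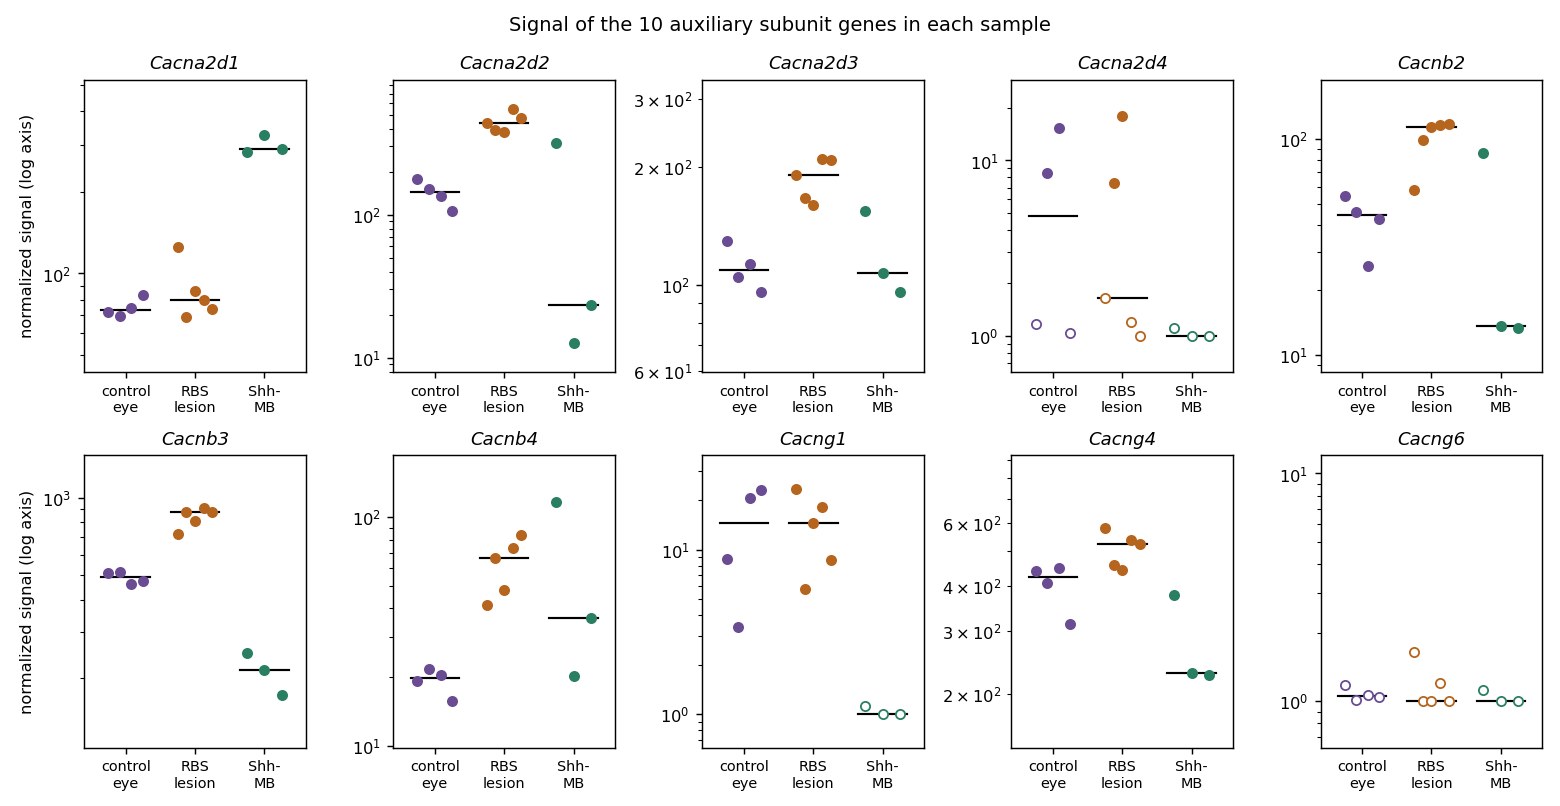
Normalized signal (log axis) of the 10 auxiliary subunit genes in each sample of the 3 groups, with replicates in order from left to right. Points are samples, black lines are group medians and open points are readings at the floor. *RBS* lesions are above all control eyes for *Cacna2d2*, *Cacna2d3*, *Cacnb2*, *Cacnb3* and *Cacnb4*, *Cacna2d1* is high in the 3 Shh-MBs, and Shh-MB 1 lies far above the other tumors for *Cacna2d2*, *Cacnb2* and *Cacnb4*.

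*Cacna2d1* encodes α2δ-1, which is widespread in muscle and neurons. Its signals were 72.1, 69.3, 74.7 and 83.4 in the control eyes, 125, 68.9, 85.9, 79.6 and 73.7 in the *RBS* lesions, and 281, 327 and 289 in the Shh-MBs. Eyes and lesions overlapped, with lesion 1 above the rest, while the 3 tumors were above all other samples. The means were 74.9 ± 6.10 (SD, n = 4), 86.7 ± 22.5 (SD, n = 5) and 299 ± 24.7 (SD, n = 3). The difference between *RBS* lesions and control eyes was 0.18 on the log2 scale (95% interval -0.21 to 0.56, limma adjusted *p* = 0.424). In Shh-MBs the gene was 4.00-fold above control eyes by the means (log2 difference 1.98, SE 0.109, adjusted *p* = 1.99e-05). In *RBS* lesions it fell by 1.81 on the log2 scale relative to Shh-MBs (SE 0.196, adjusted *p* = 9.76e-05).

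*Cacna2d2* encodes α2δ-2, known from cerebellar Purkinje cells, and its loss causes ataxia and seizures in the *ducky* mouse. It had signals of 179, 152, 135 and 105 in the control eyes and 440.3, 393, 381, 548 and 471 in the *RBS* lesions. The lowest lesion was thus well above the highest eye. The means were 143 ± 30.9 (SD, n = 4) and 447 ± 67.4 (SD, n = 5), a ratio of 3.12, and the log2 difference was 1.65 (SE 0.170, limma adjusted *p* = 6.97e-05). In the Shh-MBs the signals were 315, 12.7 and 23.5. Tumor 1 was in the range between eyes and lesions, and the other 2 tumors, with 14 and 28 counts, were below every eye. The mean of the 3 tumors (117 ± 171, SD, n = 3) is therefore close to none of them. The log2 difference of *RBS* lesions over Shh-MBs was 3.23 (SE 0.898, 95% interval 1.15 to 5.31, adjusted *p* = 0.0136), and that of Shh-MBs over control eyes was -1.58 (adjusted *p* = 0.279).

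*Cacna2d3*, which encodes the brain subunit α2δ-3, rose less. Its signals were 129.6, 105, 113 and 95.9 in the control eyes, 191, 167, 159.9, 209.8 and 209 in the *RBS* lesions, and 155, 107 and 95.6 in the Shh-MBs. The lesions were above all eyes and all tumors, and eyes and tumors overlapped. The lesion mean of 187 ± 23.2 (SD, n = 5) was 1.69-fold that of the eyes, 111 ± 14.3 (SD, n = 4). The log2 difference was 0.75 (SE 0.126, limma adjusted *p* = 0.00098). Relative to Shh-MBs it was 0.67 (SE 0.181, adjusted *p* = 0.0118), and between Shh-MBs and control eyes 0.083 (adjusted *p* = 0.793). The call against Shh-MBs depends on the scaling, since the difference was -0.18 (adjusted *p* = 0.341) when each sample was centred on its median.

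*Cacna2d4* encodes α2δ-4 of photoreceptor synapses, and its mutation causes cone dysfunction. It was barely detected. Of the control eyes, 2 read 8.47 and 15.2 and 2 were at the floor, and of the *RBS* lesions, 2 read 7.40 and 18.0 and 3 were at the floor. All 3 Shh-MBs were at the floor. With 8 to 20 counts in 4 samples and the other eyes and lesions at the floor, no difference between the 2 groups was detectable (log2 difference -0.18, limma adjusted *p* = 0.877).

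*Cacnb3* encodes β3, a subunit of neuronal and smooth muscle channels, and had the lowest relative spread of the 10 genes among control eyes (5.13% of the mean) and among *RBS* lesions (8.93%, leaving out *Cacng6*). It read 507, 513, 461 and 475 in the control eyes, 724, 881, 809, 910.1 and 879 in the *RBS* lesions, and 249.97, 214 and 171 in the Shh-MBs. The 3 groups did not overlap, with lesions highest and tumors lowest. The means were 489 ± 25.1 (SD, n = 4), 841 ± 75.0 (SD, n = 5) and 212 ± 39.5 (SD, n = 3). The lesion mean was 1.72-fold that of the eyes (log2 difference 0.78, SE 0.0929, limma adjusted *p* = 0.00015) and 3.97-fold that of the tumors (log2 difference 2.00, SE 0.145, adjusted *p* = 1.32e-05). In Shh-MBs the gene fell by 1.22 on the log2 scale relative to control eyes (SE 0.144, adjusted *p* = 0.000602).

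*Cacnb2* encodes β2, the main β subunit of the heart, which is also needed at photoreceptor synapses. Its signals were 54.5, 46.0, 25.8 and 42.8 in the control eyes, 57.9, 98.9, 114, 116 and 118 in the *RBS* lesions, and 86.5, 13.7 and 13.4 in the Shh-MBs. Lesion 1 was only just above the highest eye, and the other 4 lesions lay together. Shh-MB 1 was above lesion 1, so lesions and tumors overlapped. The lesion mean of 101 ± 25.1 (SD, n = 5) was 2.39-fold that of the eyes, 42.3 ± 12.02 (SD, n = 4), with a log2 difference of 1.24 (SE 0.268, limma adjusted *p* = 0.00408). Relative to Shh-MBs it was 1.90 (SE 0.601, adjusted *p* = 0.0243), and between Shh-MBs and control eyes -0.66 (adjusted *p* = 0.481). Median centring ended the call against Shh-MBs (1.06, adjusted *p* = 0.115).

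*Cacnb4* encodes β4, prominent in the cerebellum and lost in the epileptic *lethargic* mouse. By the means it had the largest ratio between *RBS* lesions and control eyes of the 10 genes. The control eyes read 19.3, 21.6, 20.5 and 15.7, which is 15 to 21 counts, and the lesions 41.5, 66.5, 48.0, 73.6 and 83.7. Every lesion was thus well above the eyes, and lesion 1 was again the lowest. The mean rose from 19.3 ± 2.58 (SD, n = 4) to 62.7 ± 17.6 (SD, n = 5), a ratio of 3.25, with a log2 difference of 1.61 (SE 0.213, limma adjusted *p* = 0.000258). The Shh-MBs read 117, 20.2 and 36.3. They spanned a 5.78-fold range, from within the eyes to above every lesion. Neither the difference of *RBS* lesions over Shh-MBs (0.44 on the log2 scale, 95% interval -0.76 to 1.65, adjusted *p* = 0.490) nor that of Shh-MBs over eyes (1.17, adjusted *p* = 0.134) passed the threshold.

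*Cacng4* encodes γ4, an AMPA receptor partner. It read 442, 408, 449 and 313 in the control eyes, 579.8, 458, 445, 540.1 and 525 in the *RBS* lesions, and 378, 229 and 226 in the Shh-MBs. The lowest lesion was below the highest eye, and all lesions were above all tumors. The lesion mean of 509 ± 57.1 (SD, n = 5) was 1.27-fold that of the eyes, 403 ± 62.7 (SD, n = 4), and the log2 difference of 0.35 missed the threshold (95% interval 0.04 to 0.65, limma adjusted *p* = 0.0593). It passed with limma's trend and robust options (adjusted *p* = 0.0301) and when genes with a mean under 20 were left out (adjusted *p* = 0.0404). Over the Shh-MBs, with a mean of 278 ± 86.6 (SD, n = 3), the lesions were 0.91 higher on the log2 scale (SE 0.193, adjusted *p* = 0.00365), a call that was lost under median centring (0.063, adjusted *p* = 0.743).

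*Cacng1* encodes γ1 of the skeletal muscle channel. It read 8.75, 3.40, 20.5 and 23.0 in the control eyes and 23.4, 5.78, 14.5, 18.1 and 8.72 in the *RBS* lesions, at 3 to 22 counts. Eyes and lesions covered the same range, with means of 13.9 ± 9.37 (SD, n = 4) and 14.1 ± 7.10 (SD, n = 5). All 3 Shh-MBs were at the floor. Set against 3 counts per tumor, a mean signal of 2.90, the lesions were at least 4.86-fold and the eyes at least 4.79-fold higher by their means. These folds were not tested. The limma fit, on the floor readings themselves, gave log2 differences of 2.74 for lesions over tumors (adjusted *p* = 0.000468) and -2.58 for tumors over eyes (adjusted *p* = 0.0131). Both calls rest on signals close to the floor. With values under 20 set to 20, the log2 difference of lesions over tumors was 0.044 (adjusted *p* = 0.627) and that of tumors over eyes -0.057 (adjusted *p* = 0.497). *Cacng6*, which encodes the related γ6, was at the floor in all 12 samples, which with 3 counts as the limit allows a signal of up to 2.90 on average in the tumors. No difference is given for it.

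*RBS* lesions compared with Shh-MBs had 6 of the 10 genes higher (*Cacna2d2*, *Cacna2d3*, *Cacnb2*, *Cacnb3*, *Cacng1*, *Cacng4*) and 1 lower (*Cacna2d1*). Over the panel 48.1% of genes were higher and 12.7% lower in this comparison, 60.8% in all. The lesions and tumors did not overlap in 6 of the 10 genes, against 59.9% of the panel. The median log2 difference was 1.03 for the 10 genes and 0.528 for all 770.

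Shh-MBs compared with control eyes had 1 of the 10 genes higher (*Cacna2d1*) and 2 lower (*Cacnb3*, *Cacng1*), while 9.61% of the panel was higher and 31.4% lower, 41.0% in all. The groups did not overlap in 3 of the 10 genes, against 48.2% of the panel. The median log2 difference was -0.61 for the 10 genes and -0.223 for all 770. The comparisons share samples pairwise, so they are not independent of each other.

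**Figure D2:**
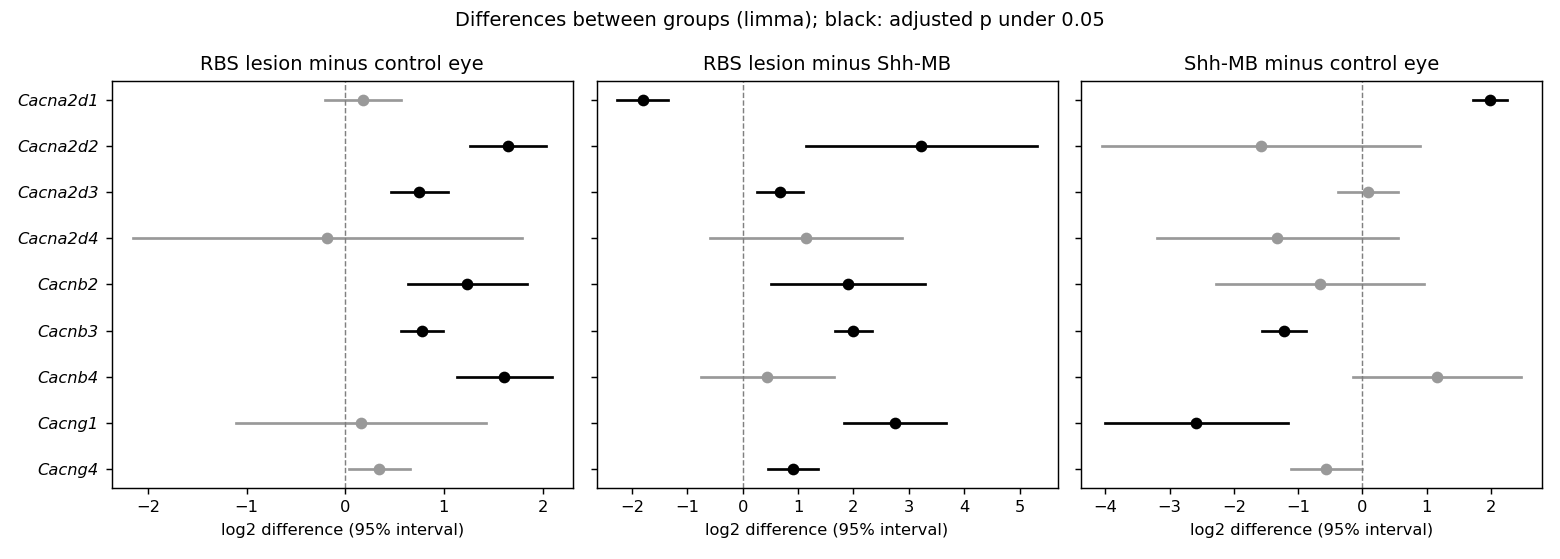
Log2 differences between groups with 95% intervals (limma) for 9 auxiliary subunit genes, leaving out *Cacng6*, which is at the floor in all samples. Black marks an adjusted *p* under 0.05 and grey all others, with 5 genes black in *RBS* lesion minus control eye, 7 in *RBS* lesion minus Shh-MB and 3 in Shh-MB minus control eye.

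Some subunit genes differed widely between tumors. In Shh-MB 1, the *Cacna2d2* signal was 17.4-fold the mean of the other 2 tumors, the *Cacnb2* signal 6.40-fold and the *Cacnb4* signal 4.13-fold. *Cacnb3* (1.30-fold) and *Cacna2d1* (0.913-fold) were near the other tumors. Genes outside the family that were over 4-fold above both others in this tumor included *Cacna1g*, which encodes the T-type channel Cav3.1 (293, 36.1 and 38.0). Others were *Fgf7*, *Hdac11*, *Itga3*, *Nog*, *Prkar1b*, *Ptpn5* and *Ptprr*. What lies behind these differences between tumors was not tested.

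Shh-MB 1 had the highest tumor signals of *Cacna2d2*, *Cacnb2*, *Cacnb4* and *Cacng4*, so leaving it out lowers their tumor means by construction. The 2 tumors left held 14 and 28 counts of *Cacna2d2* and 15 and 16 of *Cacnb2*. Without Shh-MB 1, *RBS* lesions exceeded Shh-MBs by 4.60 on the log2 scale for *Cacna2d2* (limma adjusted *p* = 8.75e-06) and by 2.77 for *Cacnb2* (adjusted *p* = 0.000165). *Cacnb4* then passed as well, with 1.13 (adjusted *p* = 0.0213), so that 7 of the 10 genes were higher and 1 lower, against 48.8% and 12.6% of the panel in the same fit. Between Shh-MBs and control eyes, 5 genes instead of 2 were lower, while the share of the panel was 31.4% in both fits, and 1 was higher, against 9.22% of the panel. The 3 added were *Cacna2d2*, which fell by 2.95 (adjusted *p* = 0.000802), *Cacnb2*, which fell by 1.53 (adjusted *p* = 0.00974), and *Cacng4*, which fell by 0.81 (adjusted *p* = 0.0142). *Cacna2d1* and *Cacnb3* kept their calls with and without this tumor.

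Leaving out either of the other tumors acted the opposite way. Without Shh-MB 2 the difference of *RBS* lesions over Shh-MBs was 2.33 for *Cacna2d2* (adjusted *p* = 0.0504) and 1.48 for *Cacnb2* (adjusted *p* = 0.0954), and that of Shh-MBs over control eyes became 1.72 for *Cacnb4* (adjusted *p* = 0.0339). Without Shh-MB 3 the differences of *RBS* lesions over Shh-MBs were 2.75 for *Cacna2d2* (adjusted *p* = 0.0572), 1.46 for *Cacnb2* (adjusted *p* = 0.0967) and 0.53 for *Cacna2d3* (adjusted *p* = 0.05002), and 3 genes were higher. The calls of *Cacna2d2* and *Cacnb2* against Shh-MBs were thus lost without either of these tumors, and that of *Cacna2d3* without Shh-MB 3.

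**Figure D3:**
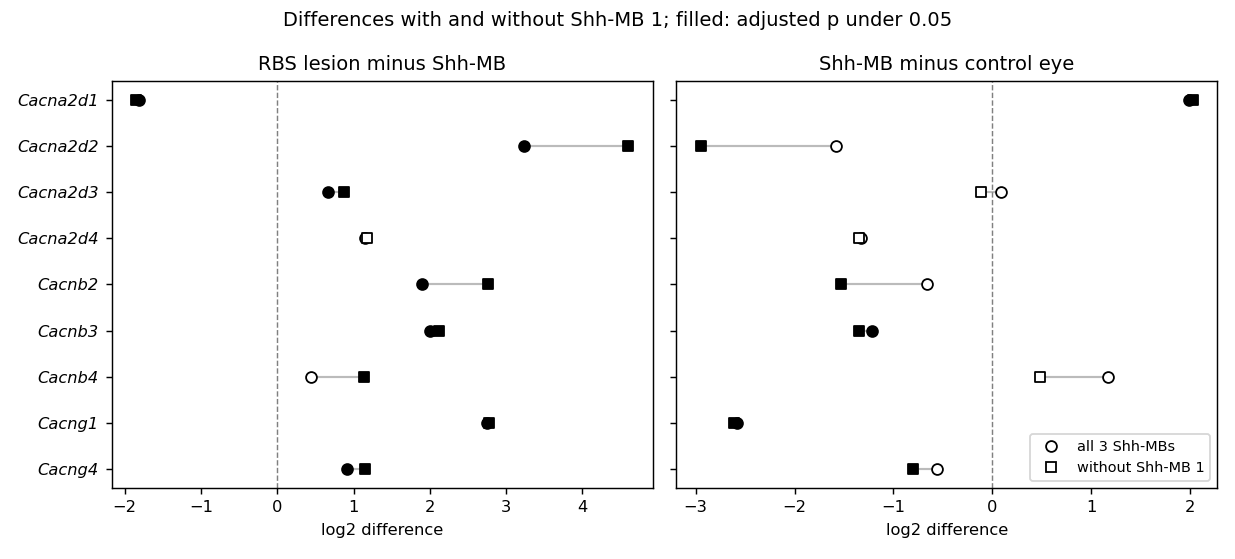
Log2 differences of 9 auxiliary subunit genes with all 3 Shh-MBs (circles) and without Shh-MB 1 (squares), for *RBS* lesion minus Shh-MB and Shh-MB minus control eye. Filled marks have an adjusted *p* under 0.05, and *Cacna2d2* moves from 3.23 to 4.60 against *RBS* lesions and from -1.58 to -2.95 against control eyes. The fits without Shh-MB 2 or without Shh-MB 3 are not drawn.

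The scaling between samples also bears on the comparisons with tumors. Centring each sample on the median of its log2 values moved the median difference of all genes from 0.172 to -0.008 for *RBS* lesions minus control eyes, from 0.528 to -0.318 for *RBS* lesions minus Shh-MBs, and from -0.223 to 0.444 for Shh-MBs minus control eyes. The 5 rises in *RBS* lesions over control eyes held under this scaling, with log2 differences of 1.47 for *Cacna2d2*, 0.57 for *Cacna2d3*, 1.06 for *Cacnb2*, 0.60 for *Cacnb3* and 1.43 for *Cacnb4* (adjusted *p* from 0.000147 to 0.00937), while 23.0% of the panel was higher and as large a share lower. They also held under quantile normalization, and when samples were scaled to a total that left out the 3 most abundant genes.

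Against Shh-MBs, *Cacna2d1* (-2.65), *Cacna2d2* (2.38), *Cacnb3* (1.15) and *Cacng1* (1.90) kept their calls under median centring. *Cacnb2* and *Cacng4* did not, and *Cacna2d3* turned to a negative difference. Of the 10 genes, 3 were then higher and 2 lower, against 23.5% and 41.4% of the panel. The 2 lower were *Cacna2d1* and *Cacng6*, which was at the floor in all 12 samples and only had its floor readings shifted by the scaling. Between Shh-MBs and control eyes, *Cacna2d3* became higher in tumors with 0.75 (adjusted *p* = 0.00722) and *Cacnb4* with 1.83 (adjusted *p* = 0.0119). Here 4 genes were higher and 2 lower, against 40.4% and 18.1% of the panel. The higher genes again include *Cacng6*, whose call reflects only the shift of its floor readings. The fall of *Cacnb3* in Shh-MBs shrank from 1.22 to a difference of -0.55 (adjusted *p* = 0.0154). The calls of *Cacna2d1* and *Cacnb3* in Shh-MBs held under all 4 scalings, whereas those of *Cacna2d3*, *Cacnb2*, *Cacnb4* and *Cacng4* did not stay the same.

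**Figure D4:**
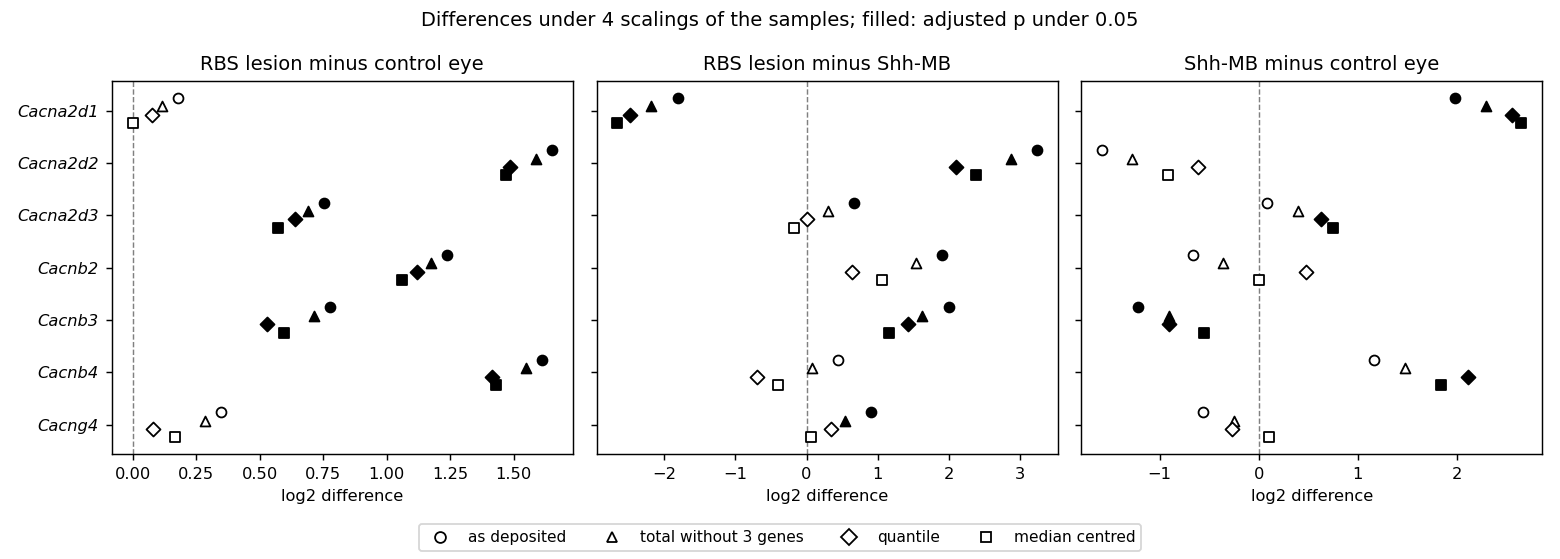
Log2 differences of the 7 auxiliary subunit genes above the floor in all samples under 4 scalings, in the 3 comparisons. Filled marks have an adjusted *p* under 0.05; in *RBS* lesion minus control eye *Cacna2d2*, *Cacna2d3*, *Cacnb2*, *Cacnb3* and *Cacnb4* are filled under every scaling, while against Shh-MB *Cacna2d3* runs from 0.67 to -0.18.

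The genes of the panel closest in pattern to each subunit gene were taken by the root mean square difference of gene-centred log2 values over the 12 samples, as a description. *Cacna2d1* was closest to *Ccnd2*, the gene of cyclin D2 (0.223), followed by *Nkd1* (0.275) and *Cdk6* (0.291). *Cacna2d2* was closest to *Hdac11* (0.430), *Prkar1b* (0.517) and *Nog* (0.660), all of which were also high in Shh-MB 1. *Cacnb2* was closest to *Cacna1g* (0.395), ahead of *Prkca* (0.447) and *Plce1* (0.565).

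*Cacnb4* was closest to *Camk2b*, a calcium/calmodulin-dependent kinase gene of neurons (0.424), then *Tnr* (0.487) and *Ntrk2* (0.514). *Cacnb3* was closest to *Cxxc4* (0.194), with *Jak2* (0.205) also among the 3 closest. *Cacna2d3* was closest to *Ppp2r1a* (0.137), *Tet2* (0.154) and *Stmn1* (0.168), and *Cacng4* to *Kit* (0.119), *Mtor* (0.135) and *Rras2* (0.188). Genes that vary little have small differences to many others, so these values are not compared between subunits.

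Pore-forming subunits were represented by 5 of 10 listed genes. Of these, *Cacna1c*, *Cacna1d* and *Cacna1e* encode high-voltage-activated channels, which β and α2δ subunits accompany, and *Cacna1g* and *Cacna1h* encode T-type channels, which are low-voltage-activated and do not need them. In *RBS* lesions 4 of these 5 rose relative to control eyes, where 33.0% of the panel rose. *Cacna1e*, which encodes the R-type channel, went from a mean of 5.39 ± 1.57 (SD, n = 4) to 125 ± 22.2 (SD, n = 5), a log2 difference of 4.32. The L-type genes *Cacna1c* (0.91) and *Cacna1d* (0.67) and the T-type gene *Cacna1g* (0.91) rose less, and *Cacna1h* differed by -0.16 (limma adjusted *p* = 0.518). Relative to Shh-MBs, *Cacna1d*, *Cacna1e* and *Cacna1h* were higher, by 0.87, 1.41 and 2.81, that is 3 of 5 genes against 48.1% of the panel. Under median centring *Cacna1d* no longer passed there (adjusted *p* = 0.952), and *Cacna1e* was at 0.56 (adjusted *p* = 0.0471) and *Cacna1h* at 1.96 (adjusted *p* = 0.0125). Without Shh-MB 1 all 5 genes were higher, including *Cacna1g* (adjusted *p* = 4.23e-06), against 48.8% of the panel. In Shh-MBs relative to control eyes *Cacna1e* was higher by 2.91 and *Cacna1h* fell by 2.96, which held under median centring and without Shh-MB 1, and 9.61% of the panel was higher and 31.4% lower. Without that tumor *Cacna1d* and *Cacna1g* were lower too.

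Of the ionotropic glutamate receptor genes, whose AMPA type γ4 accompanies, 4 of 9 listed were on the panel. The AMPA receptor gene *Gria3* (1.07) and the NMDA receptor genes *Grin1* (2.30) and *Grin2b* (3.21) rose in *RBS* lesions relative to control eyes, 3 of 4 against 33.0% of the panel, and *Grin2a* differed by 0.10 (limma adjusted *p* = 0.877). The AMPA receptor gene thus passed in a comparison where *Cacng4* did not, a difference between genes that was not tested. In Shh-MBs relative to control eyes the same 3 receptor genes were higher, by 1.80, 1.90 and 0.93, against 9.61% of the panel. Without Shh-MB 1 the last of these missed the threshold (*Grin2b*, adjusted *p* = 0.0816). *RBS* lesions had more *Grin2b* (2.28) and less *Gria3* (-0.73) than Shh-MBs, against 48.1% and 12.7% of the panel. Both calls held without Shh-MB 1 and under median centring, where the differences were 1.43 and -1.57.

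Genes that act on incoming calcium were represented by 10 of 25 listed. Relative to control eyes, 9 rose in *RBS* lesions, against 33.0% of the panel, among them *Camk2b* (1.69) and *Prkca* (1.48), the calcineurin subunit genes *Ppp3cb* (0.42), *Ppp3cc* (0.29), *Ppp3r1* (0.65) and *Ppp3r2* (1.81), the calmodulin-like gene *Calml3* (0.92), and *Prkcb* (0.58). Of these, *Ppp3r2* was near the floor in control eyes, with a mean signal of 1.29. *Ppp3ca* fell by 0.26. Under median centring 6 were higher, against 23.0% of the panel, and *Ppp3cb* (adjusted *p* = 0.0838), *Ppp3cc* (adjusted *p* = 0.406) and *Prkcb* (adjusted *p* = 0.0624) missed the threshold. Relative to Shh-MBs 6 were higher (*Calml3*, *Camk2b*, *Ppp3cb*, *Ppp3cc*, *Ppp3r1* and *Prkca*) and *Prkcb* fell by 1.81, against 48.1% and 12.7% of the panel. Without Shh-MB 1 these calls held and 7 were higher, against 48.8% of the panel. Under median centring, where the share of the panel that was higher fell to 23.5% and the share lower rose to 41.4%, *Calml3* and *Prkca* were higher and 3 genes lower, with *Ppp3cb* turning to -0.45 (adjusted *p* = 0.0246) and *Ppp3ca* at -1.01 (adjusted *p* = 0.000108). In Shh-MBs relative to control eyes, *Prkcb* (2.38) and *Ppp3r2* (1.12) were higher and *Calml3* and *Ppp3cc* lower, against 9.61% and 31.4% of the panel. The call of *Ppp3r2* lies close to the floor, with 5, 5 and 3 counts in the tumors. *Calml3* was at the floor in all 3 tumors. Without Shh-MB 1, *Ppp3cc* (adjusted *p* = 0.0755) missed the threshold and *Prkca* was lower. Under median centring 6 were higher and 1 lower, against 40.4% and 18.1% of the panel.

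Markers of the cell types that the samples could hold moved as well. The 3 neuronal markers on the panel of 12 listed (*Mapt*, *Grin1*, *Ntrk2*) all rose in *RBS* lesions relative to control eyes, against 33.0% of the panel, and their summed signal was 813 to 912 in control eyes, 2261 to 3035 in the lesions and 695 to 1069 in the tumors. In Shh-MBs relative to control eyes, *Mapt* fell by 1.02, while *Grin1* (1.90) and *Ntrk2* (0.99) were higher, against 31.4% of the panel lower and 9.61% higher. The fall of *Mapt* was lost under median centring (-0.36, adjusted *p* = 0.125). Relative to Shh-MBs, *Mapt* in the lesions was higher by 2.72 (adjusted *p* = 5.87e-06) and under median centring by 1.88, while *Grin1* (0.40, adjusted *p* = 0.405) and *Ntrk2* (0.12, adjusted *p* = 0.601) did not pass. Under median centring *Grin1* was at -0.45 (adjusted *p* = 0.279) and *Ntrk2* was lower (-0.72, adjusted *p* = 0.0042). Each of the 3 was highest in Shh-MB 1 among the tumors, where the sum was 1069. The part of neuron number in the results on the subunit genes was not tested.

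The 6 mesenchymal markers of 8 listed summed to 24018 to 54593 in control eyes, 18652 to 34826 in the lesions and 1258 to 1929 in the tumors, and 2 of the 6, *Col1a1* (-0.90) and *Col1a2* (-0.91), fell in *RBS* lesions relative to control eyes, where 18.2% of the panel fell. The other 4 did not pass, with *Col3a1* at 0.0083, *Col5a1* at -0.76, *Pdgfra* at 0.53 and *Pdgfrb* at 0.36. Under median centring *Col5a1* fell as well (-0.94, adjusted *p* = 0.0212). In Shh-MBs 5 of the 6 were lower than in both other groups. Over the panel, 31.4% of genes were lower in Shh-MBs than in control eyes, and 48.1% were higher in the lesions than in Shh-MBs. *Pdgfra* went the other way, being higher in Shh-MBs than in control eyes by 1.53 (adjusted *p* = 0.00505) and lower in the lesions than in the tumors (-1.01, adjusted *p* = 0.000466). The 5 blood and immune markers of 8 listed summed to 89.6 to 134 in control eyes, 173 to 228 in the lesions and 115.1 to 232 in the tumors, and 2 of the 5, *Cd14* and *Csf1r*, rose in *RBS* lesions relative to control eyes, against 33.0% of the panel. *Cd14* was also higher in Shh-MBs than in control eyes (1.47, limma adjusted *p* = 0.0141), 1 of the 5 against 9.61% of the panel. Its mean signals there were low, at 9.47 and 2.95. Skeletal muscle, in which γ1 is known, had 2 of 14 listed markers on the panel (*Fgfr4*, *Itga7*), with sums of 13.9 to 56.4 in control eyes, 26.6 to 68.2 in lesions and 274 to 322 in tumors. The tumors, with *Cacng1* at the floor, thus had the highest sums of these 2 genes, which are not restricted to muscle. Of the listed granule cell markers only *Mycn* was on the panel (1060.3 to 1414 in control eyes, 632 to 804 in the lesions and 3087 to 3885 in the tumors). *Mycn* is not restricted to these cells, as its signal in the eyes shows, so it does not measure granule cell content. None of 12 listed retina and lens markers was on the panel, so the labelled tissue of the eyes could not be checked with them. The part of these cell types in the results was not tested.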

How the data were processed

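RNA of 12 mouse samples was measured with the nCounter Mouse PanCancer pathways panel. The authors compiled and normalized the data with nSolver Analysis Software 4.0.70 and nCounter Advanced Analysis 2.0.115. The deposited values are signals on a linear scale: per sample a background was subtracted, the lowest readings were set to a floor and 1 factor was applied. The background setting and the reference genes are not given in the sources used here, and the log2 step of the methods is not in the deposited signal. The signal of 1 count was estimated from the steps between low values, so the counts above background are estimates.

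Groups were taken from the labels. The 2 groups of a comparison were fitted with limma 3.58.1 (R 4.3.3) on log2(signal + 1) without a filter, two-sided, with Benjamini-Hochberg adjustment over 770 genes and a threshold of 0.05. This replaces the Welch test of the methods, which was run as an alternative. Fold changes understate those of low genes. Bounds for genes at the floor used 3 counts per sample, which cover counting error only. The script was tested on simulated data. Values were tabulated with Python 3.11.15 and drawn with matplotlib 3.10.9.

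All 10 genes are described, and partner genes that passed the threshold are named. The 3 most alike genes were taken for genes with a group median signal of 20 or more. The members and lists were chosen with earlier results of these data known. Alternatives were other tests, scalings, pseudocounts, low-value rules, a replicate block and leaving out each sample. Promoter windows and gene neighbours are from RefSeq (GRCm38.p6), in which all 10 symbols were found; protein sequences were not used here. Protein and human data of the study were not analysed here, and some panel genes that the rules would name are not reported here.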

Additional observations from a re-analysis of the deposited data

How the results depend on the processing

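The number of auxiliary subunit genes that rose in *RBS* lesions over control eyes was 5 in each fit that left out 1 sample. It was 1 with the methods' t-test after step-down Bonferroni adjustment and 3 with limma on all 12 samples, where *Cacna2d2* (adjusted *p* = 0.0778) and *Cacnb2* (adjusted *p* = 0.0597) missed the threshold, and 6 with limma's trend and robust options or with genes of a mean under 20 left out, *Cacng4* being added. The number lower was 0 in every fit of this comparison. Against Shh-MBs, 6 genes higher became 0 with the Bonferroni t-test (2 at an unadjusted *p* under 0.05), 2 with the t-test after Benjamini-Hochberg adjustment, 3 with median centring and 3 with quantile normalization, and 3 to 7 in the fits without 1 sample. *Cacng1* lost its call with values under 20 set to 20. The 1 lower gene became 2 with median centring, the second being *Cacng6*, whose floor readings are shifted by the scaling, and stayed 1 without any 1 sample. In Shh-MBs relative to control eyes, 2 lower genes became 0 with the Bonferroni t-test (2 at an unadjusted *p* under 0.05), 1 with the t-test after Benjamini-Hochberg adjustment, 1 with values under 20 set to 20, 1 with genes of a mean under 20 left out and 1 with the replicate block (*Cacng1* at -2.26, adjusted *p* = 0.0536), and 2 to 5 without 1 sample. The 1 higher gene became 4 with median centring (*Cacng6* again among them) and 3 with quantile normalization, and 1 to 2 without 1 sample.

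Differences that changed sign were mostly close to 0. Between *RBS* lesions and control eyes, *Cacna2d1* was -0.0011 and *Cacng1* -0.016 with median centring, *Cacng1* was -0.11 with quantile normalization and -0.013 with values under 20 set to 20, and *Cacna2d4* was 0.11 with the replicate block. Without 1 sample, *Cacna2d4* ran from -0.70 to 0.37 and *Cacng1* from -0.33 to 0.49. Against Shh-MBs, the lesion difference of *Cacna2d3* was -0.18 and that of *Cacnb4* -0.40 with median centring, and *Cacnb4* was -0.70 with quantile normalization and ran from -0.10 to 1.13 without 1 sample. Between Shh-MBs and control eyes, *Cacnb2* was 0.0024 and *Cacng4* 0.10 with median centring, *Cacnb2* was 0.48 with quantile normalization, and *Cacna2d3* ran from -0.12 to 0.23 without 1 sample.

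Over the panel, the genes passing in *RBS* lesions against control eyes, *RBS* lesions against Shh-MBs and Shh-MBs against control eyes numbered 394, 468 and 316 with limma and 72, 80 and 36 with the Bonferroni t-test. Higher and lower genes were 254 and 140, 370 and 98, and 74 and 242, and with median centring 177 and 177, 181 and 319, and 311 and 139. With quantile normalization they were 187 and 179, 204 and 234, and 221 and 147, and with the total without the 3 most abundant genes 237 and 148, 273 and 164, and 160 and 177. Deviations of samples with the same replicate number correlated at -0.148 to 0.188. Samples of unlike number were not set beside these, so the values cannot decide whether the numbers pair the samples. The replicate block gave 301, 407 and 230 genes over the panel, and *Cacna2d2* (3.10, adjusted *p* = 0.0671) and *Cacnb2* (1.73, adjusted *p* = 0.170) against Shh-MBs missed the threshold. The permutations of the methods were not run. Values of *Cacna2d4*, *Cacng1* and *Cacnb4* in eyes rest on about 20 counts or fewer, which limits their precision. Calls of *Cacna2d2*, *Cacna2d3* and *Cacnb2* against Shh-MBs were lost without 1 tumor, whereas those of *Cacna2d1* and *Cacnb3* were not. The partner and marker lists were also run with median centring and without Shh-MB 1, which was chosen after seeing the data. Among the blood and immune markers, *Cd40* (-0.66) and *Csf3r* (-0.62) were then lower in the lesions than in the tumors and *Csf1r* (1.28) higher in the tumors than in the eyes with median centring, and *Csf1r* (0.84) was higher in the lesions than in the tumors without Shh-MB 1.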
